A study of Homo sapiens with 12 samples.

Results

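RNA from MG63 cells given siRNA against CCT4 was compared with RNA from MG63 cells given a control siRNA, across all genes with enough counts. The 6 libraries of this comparison are 6 of the 12 in the series. MG63 is an established human osteosarcoma cell line. Of the 6 samples, 3 received Allstar control siRNA, a non-targeting commercial duplex, and 3 received CCT4-specific siRNA, and all were harvested 2 days after transfection. No group was left without transfection, and the labels name neither the CCT4 siRNA sequence nor how many duplexes were used. The series' other 6 libraries are from MG63 cells given 1 µM anticarin-β or vehicle for 18 hours, and they enter here as a shared estimate of spread and as a point of comparison. Whether replicates came from separate cultures is not stated, so p-values reflect only how much these samples varied, and that variation could be technical.

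CCT4 encodes the delta subunit of the chaperonin containing TCP1 (CCT, also called TRiC), a double-ring complex in the cytosol in which each ring is built from different, related subunits. CCT encloses unfolded proteins and closes its lid on ATP hydrolysis. Its best-known clients are actin and tubulin, which prefoldin and phosducin-like proteins help to deliver or release. siRNA acts by cutting or destabilising the target mRNA, so the level of CCT4 mRNA is the first check of the labels.

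The libraries labelled CCT4 siRNA held no less CCT4 mRNA than the controls. As CPM (counts per 1000000 counts of the library, scaled by edgeR's TMM factors), CCT4 stood at 186, 160.2 and 185 in the control siRNA libraries and at 201, 199.6 and 216 in the 3 labelled CCT4 siRNA, from 2527 to 3365 counts each. The labelled libraries were thus all above the control libraries, at 1.16-fold (95% interval 1.01 to 1.34), and the difference did not pass edgeR's quasi-likelihood test (log2 fold change 0.22 ± 0.09 SE, Benjamini-Hochberg adjusted p = 0.129). CCT4 (chr2:61868089-61888804, minus strand, GRCh38) overlaps COMMD1 on the opposite strand, and COMMD1 was at 5.57, 3.8 and 5.9 CPM against 5.43, 6.32 and 6.88 CPM. No stretch of 50 bases in the longest annotated CCT4 transcript occurs in another gene's annotated transcripts. CCT4 protein was not measured, so these libraries carry no check that CCT4 was depleted, and the treated group is called by its label throughout. For reference, CCT4 was at 258, 238 and 212 CPM in the vehicle libraries and 86.8, 87.5 and 72.5 CPM in the anticarin-β libraries.

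The cell line label was checked against marker genes. Osteoblast-lineage markers summed to between 1587 and 1628 CPM in the control libraries and between 2014 and 2156 CPM in the labelled libraries. COL1A1, COL1A2 and SPARC carried these sums. ALPL was at 16.2 to 20.1 CPM, RUNX2 at 2.03 to 7 CPM and MSX2 at 2.12 to 4.74 CPM. BGLAP reached at most 1.08 CPM, SP7 at most 3 counts and SPP1 at most 1 count per library. IBSP and DLX5 had no count. In the vehicle libraries the same markers summed to between 6525 and 8093 CPM. Epithelial markers summed to at most 2.96 CPM, with CDH1 at 0. Blood cell markers summed to at most 15.7 CPM, nearly all from CD14, with CD3E, LYZ and HBB at 0. Endothelial markers summed to at most 16.5 CPM, mostly PECAM1. Total counts ran from 13966477 to 15456294 per siRNA library. Before TMM factors are applied, 3 counts, the limit that a count of 0 allows, correspond to between 0.194 and 0.215 CPM. The factors of these libraries were 1.0205 to 1.1236, so the limit is slightly lower on the scaled CPM used here.

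Of 17717 genes tested, 3493 (19.7%) differed at an adjusted p under 0.05. There were 1892 higher genes (10.7%) and 1601 lower genes (9.04%). Both shares are the background for the counts of list members below. Most differences were small: 2106 of the 3493 were under 1.5-fold, and 166 genes (0.937%) passed a test against a 1.5-fold change, 115 of them higher and 51 lower. The split between higher and lower depended on the scaling. Scaling to library totals alone moved the median of all genes from 0.01 to -0.12 on the log2 scale and gave 902 higher and 2800 lower genes, in place of 1892 and 1601. At 100 CPM or more in the higher group, the largest folds among called genes without overlap or a clone name were on the higher side. The lowest log2 fold change of any called gene with at least 5 CPM in the control libraries was -11, for a gene outside the naming rule.

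**Figure D1:**
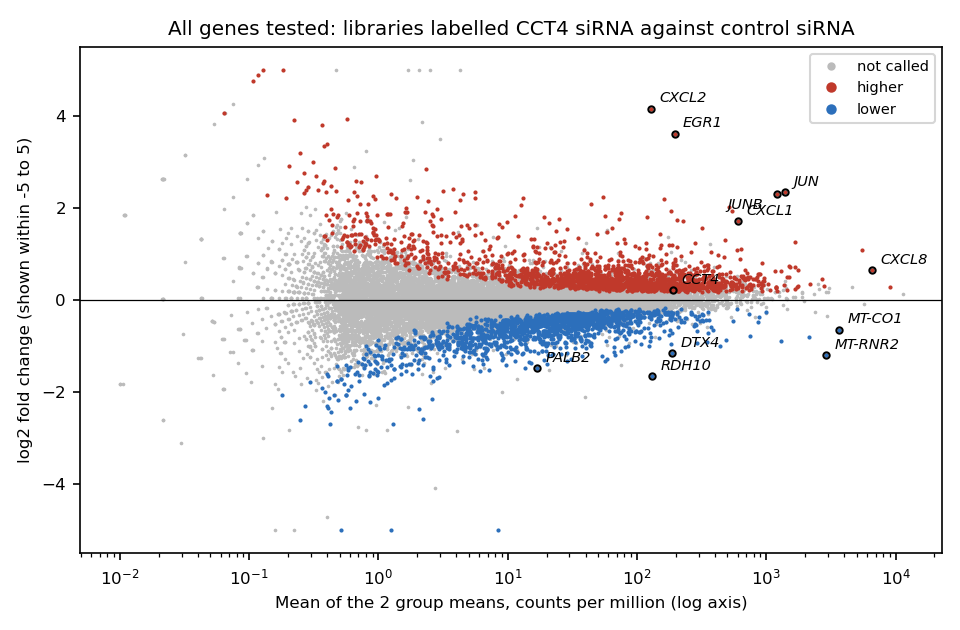
Each point is 1 of the 17717 genes tested, at its mean level (horizontal, CPM on a log axis) and its log2 fold change between the libraries labelled CCT4 siRNA and the control siRNA libraries (vertical). Folds beyond a fixed limit, down to -11 among called genes at 5 CPM or more in controls, are drawn at that limit. Red and blue points passed an adjusted p under 0.05, and circled points are named: CXCL2 (4.16) and EGR1 (3.62) lie highest among abundant genes, RDH10 (-1.65) and MT-RNR2 (-1.2) lie low, and CCT4 (0.22) lies above 0 and was not called.

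Protein-coding genes with short transcripts were more often higher than those with long ones. Length and GC content here are those of each gene's longest annotated transcript, and which transcripts were expressed was not examined. Among 10650 protein-coding genes at 5 CPM or more, 22.1% of the 2130 with the shortest transcripts were higher and 6.15% lower, against 10.3% and 13.7% of the 2130 longest. The median log2 fold change was 0.15 among the shortest and -0.04 among the longest. By GC content it ran from -0.04 in the 2130 with the lowest content to 0.08 in the 2130 with the highest. The part of these trends in the gene groups below was not tested beyond a fit, chosen after seeing the data, that takes both trends out.

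The remaining chaperonin subunits stood slightly higher in the labelled libraries. All 9 subunit genes were tested: 3 rose, none fell and the median log2 fold change was 0.26, beside 0.01 for all genes tested. CCT2 (beta) measured 141, 135 and 146 CPM in the control libraries and 178, 184 and 189 CPM in the labelled libraries (log2 fold change 0.38 ± 0.1, adjusted p = 0.0178). CCT3 (gamma) measured 289.6, 297 and 283 CPM against 360.2, 362 and 336 CPM (log2 fold change 0.28 ± 0.07, adjusted p = 0.0132). TCP1 (alpha) measured 179, 216 and 188 CPM against 235, 239 and 241 CPM (log2 fold change 0.29 ± 0.09, adjusted p = 0.0381). None of these 3 overlapped between groups, as was so for 41.8% of all genes tested, and none of them passed when libraries were scaled by totals alone. CCT5 (epsilon), CCT6A (zeta), CCT7 (eta) and CCT8 (theta) had log2 fold changes of 0.22, 0.26, 0.4 and 0.18 with adjusted p from 0.0609 to 0.127. CCT6B, a subunit made mainly in testis, was near the detection limit at 0.384, 0.444 and 0.835 CPM against 0.458, 0.253 and 0.707 CPM. The count of 3 was 1 without control library 1 or without labelled library 2 or 3, 6 without vehicle library 1 and 5 without vehicle library 3.

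Few partners of the chaperonin were called. Of 11 prefoldin and phosducin-like genes tested, 2 passed, both higher (18.2%, beside 10.7% of all genes): PFDN6 (log2 fold change 0.35 ± 0.1, adjusted p = 0.0283) and PFDN1 (log2 fold change 0.3 ± 0.1, adjusted p = 0.0428), subunits of the prefoldin hexamer; neither passed with library totals alone or without control library 1 or labelled library 1 or 2. Among 21 tubulins, actins and tubulin-folding cofactors, 7 rose and 1 fell, with a median of 0.23. TUBA1B, an abundant alpha-tubulin, measured 795, 650.2 and 638 CPM in the control libraries and 1086, 1014 and 999.5 CPM in the labelled libraries (log2 fold change 0.57 ± 0.11, adjusted p = 0.00381). TUBA1C went from 377 ± 9.62 to 529.7 ± 3.69 CPM (mean ± SD, n = 3) and TUBA1A from 88.3 ± 7.69 to 126 ± 10.5 CPM, log2 fold changes of 0.49 and 0.51. These 3 alpha-tubulins share 25.1% to 41.1% of their 50-base stretches with other genes, so their individual values are uncertain. TBCC, a cofactor in the last step of tubulin dimer assembly, was the member that fell (log2 fold change -0.54 ± 0.12, adjusted p = 0.00925). With library totals alone 4 members rose.

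**Figure D2:**
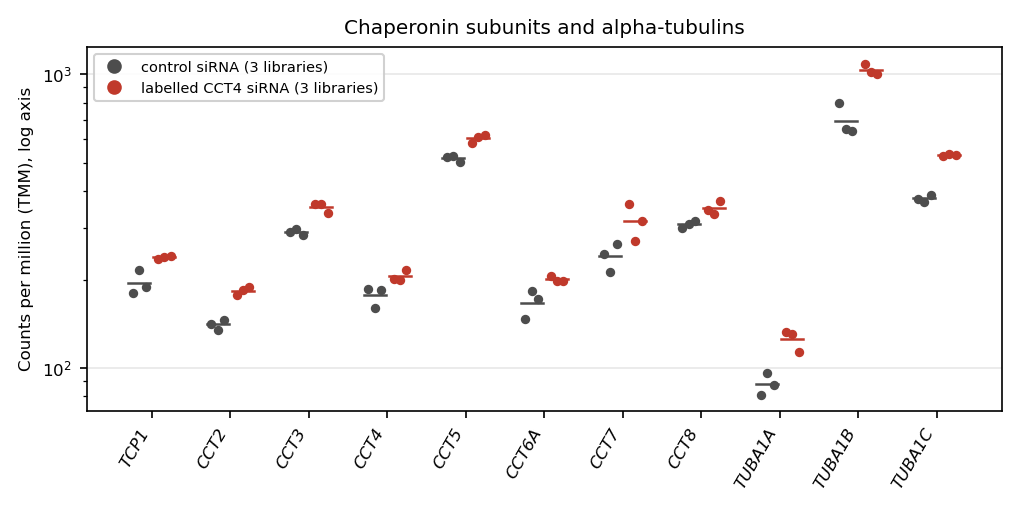
Points are the 3 libraries of each group, in replicate order from left to right, and bars are group means, in CPM on a log axis, for 8 chaperonin subunits and 3 alpha-tubulins. CCT4 is at 160.2 to 186 CPM in the control siRNA libraries and 199.6 to 216 CPM in the libraries labelled CCT4 siRNA, so the targeted mRNA is not lower.

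The largest rises at high abundance were in chemokine and early-response genes. Chemokines of the CXC family draw neutrophils, and their genes are classic targets of NF-kB, a dimeric transcription factor held in the cytosol by inhibitor proteins until a signal removes them. Early-response genes such as EGR1 and JUN are switched on within minutes of a stimulus without new protein synthesis; serum response factor, which binds the CArG box, drives EGR1. The stretches just upstream of the RefSeq starts of CXCL1, CXCL2, CXCL3 and EGR1 are shown as picked examples, each of which holds the motif shown. JUN, JUNB, ZFP36 and JUND had larger folds than CXCL1 and CXCL3. They held neither the NF-kB motif nor a CArG box in the 250 bases before their starts. The NF-kB motif is in capitals for the chemokines and CArG boxes are in capitals for EGR1. Sequences are RefSeq's, GRCh38.p14, 5′ to 3′ on the gene's strand; for CXCL2 and CXCL3 only 30 bases around the motif are given.
CXCL1, chr4:73869243-73869392, plus strand: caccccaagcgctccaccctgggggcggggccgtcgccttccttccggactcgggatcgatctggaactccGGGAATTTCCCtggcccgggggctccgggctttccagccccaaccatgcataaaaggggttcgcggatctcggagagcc
CXCL2, chr4:74099254-74099283, minus strand: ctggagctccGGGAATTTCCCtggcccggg
CXCL3, chr4:74038749-74038778, minus strand: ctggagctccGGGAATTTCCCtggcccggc
EGR1, chr5:138465329-138465478, plus strand: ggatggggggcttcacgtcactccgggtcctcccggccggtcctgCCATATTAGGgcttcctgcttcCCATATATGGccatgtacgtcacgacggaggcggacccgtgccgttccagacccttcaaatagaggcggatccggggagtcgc

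The capitals in the 3 chemokine stretches are the same letters. They read as the motif on both strands, so each is a single overlapping site. It begins 79, 78 and 79 bases before the RefSeq start of CXCL1, CXCL2 and CXCL3. The EGR1 boxes begin 105 and 83 bases before its RefSeq start. The NF-kB motif was searched by name on both strands in the 250 bases before each start. It was present for 7 of 9 chemokine genes with a promoter entry (77.8%), 7 of 18 genes of the NF-kB list (38.9%) and 705 of 11916 tested genes (5.92%). Among genes called more than 2-fold higher, 18 of 132 held it (13.6%), and among those more than 2-fold lower, 16 of 158 (10.1%). The CArG box was present for 5 of the 132 (3.79%) and 119 of the 11916 (0.999%). None of the 18 early-response transcription factors with an entry held the NF-kB motif, and 2 held a CArG box. TGANTCA, the AP-1 motif that JUN and FOS dimers bind, was in 8.33% of the 132, 1.9% of the 158 and 4.27% of all. These matches are a description of letters, not of binding.

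Of 11 chemokine genes tested, 8 rose and none fell (72.7%, beside 10.7% of all genes), with a median log2 fold change of 0.65. CXCL2 (chr4:74097035-74099293) measured 13.5, 13.7 and 13.8 CPM in the control libraries and 239.7, 241 and 254 CPM in the labelled libraries. The control libraries lay within 1 CPM of each other and far below the others, a 17.9-fold difference (95% interval 14.7 to 21.8, adjusted p = 2.65e-09). CXCL1 measured 294, 294 and 259 CPM against 918, 919.5 and 929 CPM, 3.27-fold (adjusted p = 5.48e-07). CXCL3 measured 97.2, 90.2 and 94.4 CPM against 307, 322 and 309 CPM, 3.33-fold (adjusted p = 6.14e-07). CCL2, which draws monocytes, measured 20.4, 13.9 and 16.3 CPM against 80.7, 66.9 and 67.3 CPM, 4.24-fold (adjusted p = 5.8e-06). Other chemokines rose by less. CXCL8 (interleukin-8), which draws neutrophils, measured 5011, 5249 and 4984 CPM against 7561, 7972 and 8362 CPM (log2 fold change 0.65 ± 0.15, adjusted p = 0.00965). CCL20, CXCL6 and CXCL5 had log2 fold changes of 0.73, 0.5 and 0.33. CXCL6 did not pass with any siRNA library left out or with library totals alone. CCL20 did not pass without control library 1 or 3 or labelled library 2, or with length and GC trends removed. CXCL10, a target of interferon as well as NF-kB whose promoter holds the NF-kB motif, did not differ detectably at 46.3, 48 and 41.9 CPM against 44, 43.8 and 43.8 CPM (log2 fold change -0.05 ± 0.15, adjusted p = 0.864). CXCL1 shares 5.73% and CXCL2 9.24% of their 50-base stretches with each other or CXCL3, and how reads from them were assigned is unknown here. CCL5 and CXCL12 were not called, at 0.59 (adjusted p = 0.196) and 0.34 (adjusted p = 0.227). The count of 8 was 6 to 8 when any 1 library was left out.

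Early-response transcription factors rose as a group: 18 of 24 tested were higher and none lower (75%), with a median of 1.08. EGR1 (chr5:138465490-138469315), a zinc finger factor, measured 29.8, 27.3 and 31.1 CPM in the control libraries and 386, 355 and 342 CPM in the labelled libraries, 12.3-fold (log2 fold change 3.62 ± 0.18, adjusted p = 2.56e-07). JUN (chr1:58780788-58784327), the central AP-1 subunit, measured 475, 432 and 471 CPM against 2416, 2295 and 2251 CPM (log2 fold change 2.34 ± 0.07, adjusted p = 2.65e-09). JUNB measured 416, 391 and 427 CPM against 2114, 2037 and 1936 CPM (log2 fold change 2.3 ± 0.07, adjusted p = 2.65e-09). JUND measured 218, 188 and 196 CPM against 910.5, 782 and 773 CPM (log2 fold change 2.03 ± 0.11, adjusted p = 5.38e-07). The libraries of a group lay close together for all 4 genes, and the groups were far apart. The rule that named these genes required no overlap. JUNB overlaps HOOK2 on the opposite strand, which had a log2 fold change below 0. EGR3 was scarce at 0.769, 0.951 and 1.31 CPM against 5.69, 5 and 5.27 CPM, 5.21-fold (adjusted p = 0.000902). The AP-1 partner FOS, taken up after its values were seen, measured 9.74, 11.7 and 9.96 CPM against 22, 27.1 and 20.6 CPM (log2 fold change 1.15 ± 0.24, adjusted p = 0.0057). ATF3, which dimerises with JUN, measured 16.8, 13.2 and 17.7 CPM against 37.7, 36.1 and 41.8 CPM (log2 fold change 1.28 ± 0.26, adjusted p = 0.005).

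Other early-response genes moved the same way, with 15 of 24 higher and 1 lower and a median of 0.63. PPP1R15A (GADD34), which directs dephosphorylation of eIF2-alpha, measured 167, 162 and 153 CPM against 502, 466 and 462 CPM (log2 fold change 1.57 ± 0.06, adjusted p = 1.4e-08). CSRNP1, a nuclear protein that AXIN1 induces, went from 44.6 ± 3.22 to 113 ± 5.87 CPM (log2 fold change 1.34 ± 0.11, adjusted p = 1.38e-05). GADD45A, a stress sensor linked to p53 and JNK signalling, went from 48.3 ± 3.6 to 99.3 ± 8 CPM (log2 fold change 1.04 ± 0.1, adjusted p = 3.55e-05). IER3 went from 976 ± 30.6 to 2355 ± 113 CPM (log2 fold change 1.27 ± 0.14, adjusted p = 9.74e-05). ZFP36 (tristetraprolin), which binds AU-rich elements and speeds decay of cytokine mRNAs, was uneven at 58, 57 and 56.9 CPM against 342, 111 and 338 CPM: labelled library 2 was well below the other labelled libraries yet above every control (log2 fold change 2.2 ± 0.31, adjusted p = 0.000536). Counts of higher members in both early-response lists stayed within 1.5 times of these under every scaling, filter, tool and left-out library tried.

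**Figure D3:**
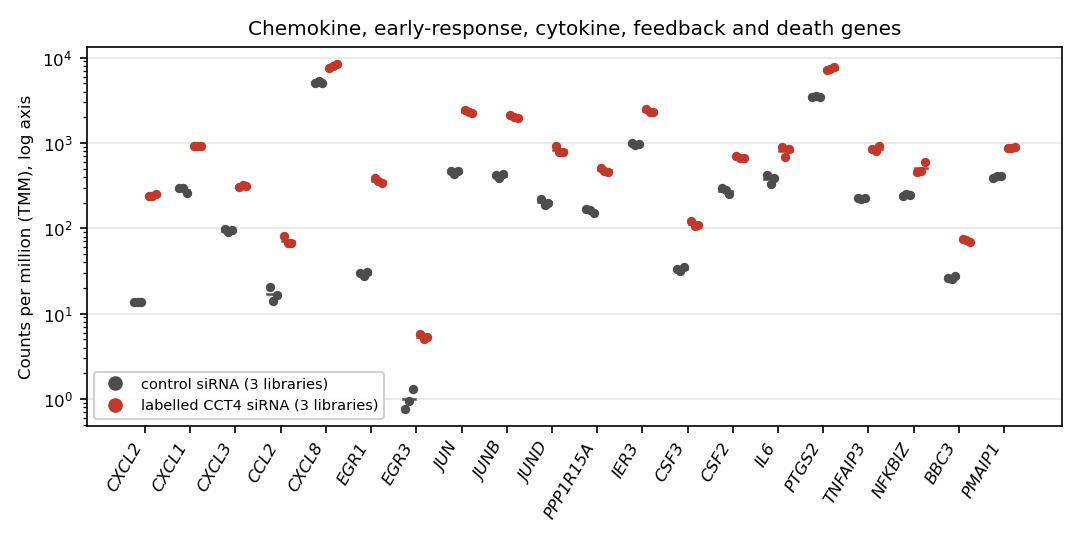
Points are the 3 libraries of each group, in replicate order from left to right, and bars are group means, in CPM on a log axis, for 20 chemokine, early-response, cytokine, NF-kB feedback and cell death genes. The libraries labelled CCT4 siRNA lie above the control siRNA libraries for all 20, from 17.9-fold for CXCL2 to 1.57-fold for CXCL8. Groups did not overlap for 41.8% of all genes tested, and the rule that named some of these genes required this.

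Secreted cytokines and the prostaglandin enzyme rose with the chemokines. Of 13 tested, 8 were higher and none lower (61.5%), with a median of 0.73, and no left-out library changed the count. CSF3 (G-CSF), which drives neutrophil production, measured 33.3, 31.2 and 35.2 CPM in the control libraries and 122, 107 and 110.1 CPM in the labelled libraries (log2 fold change 1.77 ± 0.12, adjusted p = 2.53e-06). CSF1 (M-CSF), which supports macrophages, measured 1269.6, 1234 and 1286 CPM against 2181, 2087 and 2030.5 CPM (log2 fold change 0.73 ± 0.08, adjusted p = 7.33e-05). CSF2 (GM-CSF) measured 294, 282 and 249.7 CPM against 697, 670.2 and 659 CPM (log2 fold change 1.3 ± 0.17, adjusted p = 0.000305). IL11 was scarce at 2.63, 1.97 and 2.09 CPM against 5.43, 6.07 and 5.79 CPM (log2 fold change 1.37 ± 0.16, adjusted p = 0.00019). IL1A measured 19.4, 22.9 and 16.7 CPM against 49, 49 and 53.1 CPM (log2 fold change 1.36 ± 0.14, adjusted p = 8.11e-05). For all of these the groups lay apart, as was so for 41.8% of all genes tested. IL6, the main pro-inflammatory cytokine of stromal cells, measured 421, 328 and 386 CPM against 907, 676 and 857 CPM with more spread (log2 fold change 1.1 ± 0.22, adjusted p = 0.00443). PTGS2 (cyclooxygenase-2) rose from 3496 ± 55.8 to 7426 ± 272 CPM (log2 fold change 1.09 ± 0.2, adjusted p = 0.0031).

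NF-kB subunits and feedback genes were higher for 13 of 20 members and lower for none (65%), with a median of 0.65. TNFAIP3 (A20), the deubiquitinase that shuts the pathway down, measured 224, 222 and 228 CPM in the control libraries and 842, 801 and 919 CPM in the labelled libraries (log2 fold change 1.93 ± 0.08, adjusted p = 2.23e-08). NFKBIZ, a nuclear co-regulator, measured 239, 255 and 243 CPM against 457, 465 and 594 CPM (log2 fold change 1.04 ± 0.11, adjusted p = 9.49e-05). NFKBIA, the classic cytosolic inhibitor, measured 153, 153 and 106 CPM against 236, 239.8 and 248 CPM (log2 fold change 0.81 ± 0.12, adjusted p = 0.000911). BCL3, a nuclear IkB protein, went from 73.6 ± 5.88 to 137 ± 9.45 CPM (log2 fold change 0.9 ± 0.08, adjusted p = 2.57e-05). Targets of the pathway in this list included ICAM1, an adhesion molecule, from 115 ± 5.67 to 198 ± 5.77 CPM (log2 fold change 0.79 ± 0.06, adjusted p = 8.64e-06). SOD2, the mitochondrial superoxide dismutase, went from 677 ± 41.2 to 1178 ± 2.77 CPM (log2 fold change 0.8 ± 0.09, adjusted p = 9.97e-05). BIRC3 went from 141 ± 5.88 to 254 ± 50.9 CPM (log2 fold change 0.85 ± 0.14, adjusted p = 0.00134). TRAF1, NFKBIB and NFKBIE, which also restrain or relay the pathway, had log2 fold changes of 1.17, 0.52 and 0.47. Among the subunits, NFKB1 and NFKB2, the p105 and p100 precursors, had log2 fold changes of 0.44 and 0.49, and RELA of 0.77 with wide spread in the controls (60, 45.7 and 74.1 CPM). RELA did not pass with library totals alone or without control library 1 or 2 or any labelled library. REL and RELB were not called, at 0.34 (adjusted p = 0.299) and 0.16 (adjusted p = 0.434), and REL shares 50.6% of its 50-base stretches with another gene. The members left, TNFAIP2 (0.8), BIRC2 (0.38), TNIP1 (-0.11), TNIP2 (-0.08) and VCAM1 (-0.79), were not called, with adjusted p from 0.0681 to 0.795.

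Signalling downstream of growth factors and cytokines changed in a few named genes. Of 6 EGF receptor ligands, HBEGF rose from 50.1 ± 2.88 to 98.6 ± 2.89 CPM (log2 fold change 0.98 ± 0.08, adjusted p = 1.6e-05). EREG, scarce, went from 1.55 ± 0.258 to 4.12 ± 0.512 CPM (log2 fold change 1.4 ± 0.27, adjusted p = 0.00391); BTC, AREG, EGF and TGFA were not called, with log2 fold changes of 0.29, -0.49, 0.13 and -0.01 and adjusted p from 0.665 to 0.982. Of 15 feedback inhibitors of ERK signalling, 3 rose and 1 fell, with a median of 0.15 (3 and 3 with library totals alone). DUSP8, a phosphatase directed at JNK and p38, measured 25.2, 24.4 and 25.5 CPM against 92.1, 86.6 and 87.5 CPM (log2 fold change 1.83 ± 0.07, adjusted p = 2.23e-08), while SPRY4 and DUSP5, which restrain receptor and ERK signalling, had log2 fold changes of 0.66 and 0.44. SPRED1 fell by 0.26 on the log2 scale and did not pass with several single libraries left out. The number higher was 5 without vehicle library 1. Among 13 STAT3 feedback genes and targets, 5 rose and none fell, with a median of -0.02 (4 and 2 with library totals alone): SOCS3, the cytokine receptor inhibitor, went from 59.4 ± 1.47 to 95.8 ± 5.73 CPM (log2 fold change 0.69 ± 0.09, adjusted p = 0.000241). CEBPD went from 84.3 ± 6.3 to 158 ± 5.85 CPM (log2 fold change 0.91 ± 0.09, adjusted p = 3.61e-05). CEBPB went from 1119 ± 112 to 1886 ± 113 CPM (log2 fold change 0.75 ± 0.09, adjusted p = 0.000198).

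**Figure D4:**
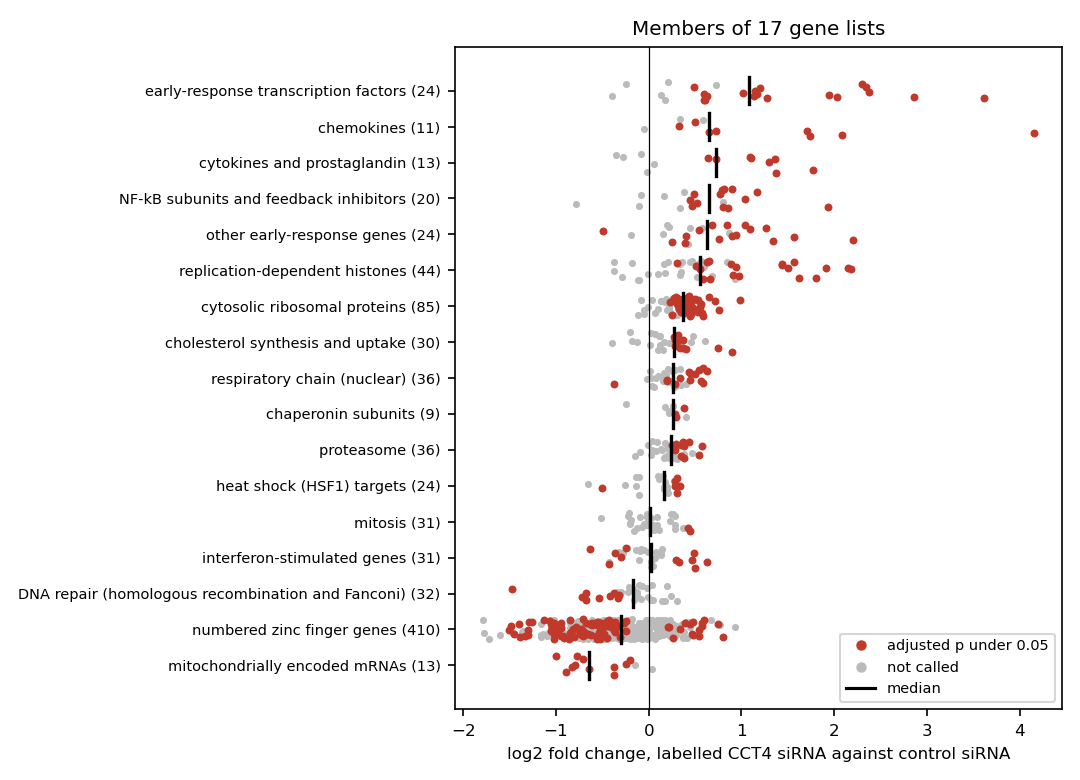
Each point is the log2 fold change of 1 member of a gene list between the libraries labelled CCT4 siRNA and the control siRNA libraries (horizontal axis), with the number of members tested in brackets, members at an adjusted p under 0.05 in red and the list's median as a black bar. Early-response transcription factors have the highest median (1.08) and mitochondrially encoded mRNAs the lowest (-0.64) of the 17 lists shown.

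Interferon genes, which double-stranded RNA can induce, were not shifted in one direction. The list of 31 interferon-stimulated genes split into 6 higher, 5 lower and 20 not called, and its median was 0.02. BST2 (tetherin) measured 681, 590.4 and 704 CPM against 897, 931 and 899.7 CPM (log2 fold change 0.47 ± 0.08, adjusted p = 0.00286). IFIT3 fell, at 841, 841 and 741 CPM against 674, 641 and 648 CPM (log2 fold change -0.3 ± 0.07, adjusted p = 0.00759). XAF1 fell as well (log2 fold change -0.63 ± 0.14, adjusted p = 0.00887). IFITM3 rose (log2 fold change 0.5 ± 0.13, adjusted p = 0.0174), but 20.3% of its 50-base stretches occur in other genes and the call was lost without control library 3 or labelled library 2. IFIT1, taken up after its values were seen, did not differ detectably at 495, 523 and 464 CPM against 449, 463 and 476 CPM (log2 fold change -0.09 ± 0.07, adjusted p = 0.353). With library totals alone the list split 1 higher and 9 lower, and leaving out any 1 of the 6 siRNA libraries left 1 to 3 higher and 2 to 4 lower. Of 22 RNA sensors and interferon-signalling genes, 7 rose and 3 fell (3 and 6 with library totals alone, and 2 to 4 higher with any 1 siRNA library left out). IRF1, itself a target of NF-kB, measured 127, 132 and 119.9 CPM against 286, 279 and 282 CPM (log2 fold change 1.16 ± 0.08, adjusted p = 1.8e-06); DDX58 (RIG-I), a cytosolic RNA sensor, measured 339, 348 and 312 CPM against 225, 235 and 241 CPM (log2 fold change -0.51 ± 0.1, adjusted p = 0.00358). ZC3HAV1, an antiviral zinc finger protein, went from 355 ± 35.4 to 503 ± 24 CPM (log2 fold change 0.5 ± 0.08, adjusted p = 0.00153). Of 17 genes of the small RNA machinery, DROSHA, the nuclear microRNA processor, fell from 58 ± 2.31 to 35 ± 1.01 CPM (log2 fold change -0.73 ± 0.08, adjusted p = 8.24e-05). AGO2, the cleaving Argonaute, had a log2 fold change of 0.26 whose call was lost with library totals alone and without any 1 siRNA library.

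Cell death genes were called in both directions. BBC3 (PUMA) measured 26.3, 25.6 and 27.7 CPM in the control libraries and 74.5, 72 and 69.3 CPM in the labelled libraries (log2 fold change 1.44 ± 0.1, adjusted p = 3.01e-06). PMAIP1 (NOXA) measured 389, 414 and 411 CPM against 861, 875 and 896 CPM (log2 fold change 1.12 ± 0.05, adjusted p = 2.06e-07). Both bind and neutralise BCL2-family survival proteins. TNFRSF10B, the death receptor for TRAIL, went from 363 ± 11.5 to 469 ± 4.02 CPM (log2 fold change 0.37 ± 0.05, adjusted p = 0.000549). Over 29 cell death regulators, 5 rose (17.2%) and 3 fell (10.3%), beside 10.7% and 9.04% of all genes, with a median of 0.07. There were 4 and 6 with library totals alone. None was lower without labelled library 2, and 1 was lower without control library 2 or labelled library 1. Over 30 cell-cycle brakes and p53 targets, 8 rose (26.7%) and 2 fell (6.67%), with a median of 0.1. There were 6 and 5 with library totals alone, and 1 lower without control library 3 or labelled library 1 or 3. AEN, an apoptosis-enhancing nuclease, rose from 70.4 ± 5.57 to 114 ± 8.93 CPM (log2 fold change 0.69 ± 0.09, adjusted p = 0.000251). XPC, the damage sensor of nucleotide excision repair, fell from 27 ± 0.926 to 14.1 ± 2.24 CPM (log2 fold change -0.94 ± 0.12, adjusted p = 0.000244). Both medians lay near the 0.01 of all genes.

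Stress programmes that follow misfolded protein showed small and mixed differences. Among 24 heat shock factor targets, 5 rose and 1 fell, with a median of 0.17, and none was higher with library totals alone. The rises were small: HSP90AB1, the constitutive cytosolic HSP90, went from 8111 ± 211 to 9864 ± 239 CPM (log2 fold change 0.28 ± 0.07, adjusted p = 0.0156), and FKBP4 and HSPB8 had log2 fold changes of 0.34 and 0.28. HSPA1B, inducible HSP70, fell (log2 fold change -0.5 ± 0.11, adjusted p = 0.00769) but shares 73.5% of its 50-base stretches with its near-copy HSPA1A, which measured 384, 377 and 411 CPM against 370, 361 and 335 CPM (log2 fold change -0.14 ± 0.11, adjusted p = 0.439). Single left-out siRNA libraries left 1 to 3 of the 5 rises. Of 23 endoplasmic reticulum chaperone and unfolded protein response genes, 6 rose and 2 fell (0 and 3 with library totals alone, and 3 higher without control library 1). HSPA5 (BiP), taken up after its values were seen, measured 1584, 1574 and 1521 CPM against 1606, 1658 and 1629 CPM (log2 fold change 0.06 ± 0.1, adjusted p = 0.699). CALR went from 1067 ± 33.2 to 1296 ± 27.3 CPM (log2 fold change 0.28 ± 0.06, adjusted p = 0.00551), PDIA6 and DNAJC3 had log2 fold changes of 0.27 and 0.33, and SYVN1 of -0.47.

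Of 26 genes of the integrated stress response, 7 rose and 3 fell, with a median of 0.03 (2 and 6 with library totals alone, and 4 higher without control library 2 or labelled library 1): SLC38A2, an amino acid transporter, measured 1156, 1185 and 1134 CPM against 1838, 1894 and 1982 CPM (log2 fold change 0.72 ± 0.08, adjusted p = 0.000112). STC2 went from 110.2 ± 8.43 to 177 ± 9.01 CPM (log2 fold change 0.68 ± 0.09, adjusted p = 0.000342). ATF4, its central factor, had a log2 fold change of 0.21. DDIT3 (CHOP) was not called at 32.5, 37.6 and 40.7 CPM against 29.2, 27.6 and 25.4 CPM (log2 fold change -0.43 ± 0.21, adjusted p = 0.176). Of 30 autophagy and lysosome genes, 7 rose and 3 fell (4 and 6 with library totals alone, and 4 higher without control library 2 or labelled library 2). The GABARAP group, which attaches to autophagosome membranes, carried 3 of the rises: GABARAPL1 measured 28, 15.5 and 51.8 CPM against 123, 103 and 129.7 CPM (log2 fold change 1.9 ± 0.31, adjusted p = 0.00134), with wide control spread. GABARAPL2 measured 41.5, 38.9 and 40 CPM against 56.6, 59.6 and 62.1 CPM (log2 fold change 0.57 ± 0.07, adjusted p = 0.000169). GABARAP measured 47.7, 50.1 and 42.6 CPM against 61.5, 73.7 and 59.6 CPM (log2 fold change 0.47 ± 0.1, adjusted p = 0.00543), the last sharing 42% of its 50-base stretches. ATP6V0D1, a proton pump subunit, also rose (log2 fold change 0.54 ± 0.1, adjusted p = 0.00366).

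Surface and matrix genes included clear rises and falls. EFNA1, a membrane-anchored ephrin ligand, measured 21.1, 17.8 and 17.4 CPM in the control libraries and 95.1, 82.4 and 90.8 CPM in the labelled libraries (log2 fold change 2.25 ± 0.14, adjusted p = 1.53e-06). EFNB1, of the transmembrane class, fell, at 83.9, 76.5 and 90.8 CPM against 37.1, 34.1 and 32.5 CPM (log2 fold change -1.28 ± 0.1, adjusted p = 1.05e-05). The receptor EPHA2 rose from 260.2 ± 15.2 to 402 ± 20 CPM (log2 fold change 0.63 ± 0.08, adjusted p = 0.000223). NOTCH2 fell by close to the same amount in every labelled library, at 453, 439.7 and 471 CPM against 239, 245 and 246 CPM (log2 fold change -0.9 ± 0.09, adjusted p = 3.65e-05). Over the 20 Notch and ephrin genes tested, 3 rose (15%) and 3 fell (15%), beside 10.7% and 9.04% of all genes (3 and 5 with library totals alone). In TGF-beta and BMP signalling 9 of 31 rose and 4 fell, with a median of 0.16. With library totals alone 7 rose and 7 fell, with a median of 0.03, and 2 fell without control library 1 or 2 or labelled library 1 or 3. The rises included the antagonists: FST (follistatin), which traps activin, went from 30.1 ± 0.609 to 56.4 ± 2.19 CPM (log2 fold change 0.9 ± 0.07, adjusted p = 1.13e-05), and the inhibitory SMAD6 and SMAD7 from 81.1 ± 2.27 to 141 ± 1.95 CPM and 66.1 ± 4.8 to 111 ± 0.924 CPM (0.8 and 0.75). LTBP1, which stores latent TGF-beta in the matrix, went from 30.9 ± 1.6 to 55.9 ± 0.283 CPM (log2 fold change 0.86 ± 0.07, adjusted p = 1.23e-05). BMP2, a bone-forming ligand, measured 329, 310.3 and 339.6 CPM against 222, 223 and 222 CPM; it was called lower (log2 fold change -0.55 ± 0.16, adjusted p = 0.033), but not without any 1 of the 6 siRNA libraries.

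Collagen and matrix genes were higher for 11 of 31 members and lower for 1, with a median of 0.24 (4 and 1 with library totals alone, 3 to 6 higher with any 1 siRNA library left out, and 18 without vehicle library 1). COL1A1, the main bone collagen chain, measured 538, 500.5 and 561 CPM against 808, 740.1 and 719 CPM (log2 fold change 0.5 ± 0.07, adjusted p = 0.000658). COL3A1 went from 63.1 ± 2.13 to 98.7 ± 0.54 CPM (log2 fold change 0.64 ± 0.05, adjusted p = 1.18e-05). COL1A2 went from 316 ± 11.9 to 402 ± 10.2 CPM (log2 fold change 0.34 ± 0.09, adjusted p = 0.0166). FBN2 (fibrillin-2) fell from 28.7 ± 2.08 to 15.1 ± 0.252 CPM (log2 fold change -0.93 ± 0.12, adjusted p = 0.000317). Of 20 metalloproteinases and inhibitors, 7 rose and none fell (5 and 1 with library totals alone): MMP3 (stromelysin-1) measured 4.29, 3.61 and 5.43 CPM against 14.9, 14.4 and 11.2 CPM (log2 fold change 1.6 ± 0.15, adjusted p = 3.67e-05). MMP1 (interstitial collagenase) measured 29, 29.7 and 30.2 CPM against 43.2, 49 and 46.5 CPM (log2 fold change 0.64 ± 0.09, adjusted p = 0.000417). ADAMTS1 measured 60.2, 58.5 and 60.8 CPM against 109.8, 109 and 109 CPM (log2 fold change 0.87 ± 0.09, adjusted p = 4.26e-05). PLAU (urokinase) rose from 907 ± 31.2 to 1154 ± 10.8 CPM (log2 fold change 0.35 ± 0.05, adjusted p = 0.000821).

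Among 11 osteoblast-lineage genes tested, 4 rose and 1 fell (3 and 2 with library totals alone, none lower with any 1 siRNA library left out, and 2 higher without control library 2 or labelled library 1); TNFRSF11B (osteoprotegerin), the decoy receptor that limits osteoclast formation, went from 706 ± 39.2 to 1039.7 ± 28.6 CPM (log2 fold change 0.56 ± 0.08, adjusted p = 0.000893). Of 26 YAP and serum response factor target genes, 11 rose and 1 fell, with a median of 0.19 (5 higher with library totals alone, 7 without labelled library 2 or 3). CYR61 (CCN1) measured 467, 440.2 and 402 CPM against 867, 789.7 and 794 CPM (log2 fold change 0.9 ± 0.12, adjusted p = 0.00032). LATS2, a YAP-restraining kinase, went from 49.2 ± 1.63 to 68.3 ± 5.04 CPM (log2 fold change 0.47 ± 0.07, adjusted p = 0.000954), and TPM2 and CALD1, which bind actin filaments, had log2 fold changes of 0.49 and 0.54. THBS1, a YAP target also in the matrix list, rose from 287 ± 12.9 to 378 ± 18.1 CPM (log2 fold change 0.4 ± 0.09, adjusted p = 0.0101).

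Most cytosolic ribosomal protein genes rose by a small amount. Of 85 tested, 54 rose, none fell and 31 were not called (63.5% higher), with a median of 0.37 and members between -0.12 and 0.98. They took 2.59 ± 0.0656% of counts in the control libraries and 3.02 ± 0.0416% in the labelled libraries (mean ± SD, n = 3). RPL30 went from 388 ± 18.1 to 531 ± 14.1 CPM (log2 fold change 0.45 ± 0.06, adjusted p = 0.000308). RPL5 went from 307 ± 20.9 to 448 ± 10.3 CPM (log2 fold change 0.55 ± 0.07, adjusted p = 0.000339). RPL13A went from 537 ± 26 to 776 ± 40.7 CPM (log2 fold change 0.53 ± 0.08, adjusted p = 0.000535). With library totals alone 31 rose, and with the length and GC trends removed 39 rose and 1 fell. By the longest annotated transcript of each gene, their median length of 1857 bases lies among the 2130 shortest, whose median was 0.15. Of 32 translation factors 15 rose and 1 fell, with a median of 0.24 (7 and 5 with library totals alone, and 9 higher without control library 1 or labelled library 1): EEF2, the translocation factor, measured 1254, 1236 and 1254 CPM against 1851, 1741 and 1689.5 CPM (log2 fold change 0.5 ± 0.06, adjusted p = 0.000123). EIF1 rose from 118 ± 14.2 to 180.2 ± 2.52 CPM (log2 fold change 0.61 ± 0.08, adjusted p = 0.000446). EIF5A went from 298 ± 23.1 to 462 ± 9.26 CPM and EIF4H from 223 ± 18.3 to 309 ± 12.7 CPM. Proteasome genes were higher for 13 of 36 and lower for none, with a median of 0.24; there were 3 higher with library totals alone and 5 to 8 without control library 2 or 3 or any labelled library. PSMA7, a core subunit, went from 234 ± 24.3 to 347 ± 22 CPM (log2 fold change 0.57 ± 0.09, adjusted p = 0.00158). PSMB7 went from 131 ± 8.03 to 177 ± 4.49 CPM and PSMD2, of the regulatory cap, from 374 ± 29.6 to 488 ± 11.9 CPM. Mitochondrial ribosomal protein genes were close to the background: 9 of 77 higher (11.7%) and 4 lower (5.19%), or 3 and 10 with library totals alone and 5 and 2 without control library 1, with MRPS24 (0.71), MRPS6 (0.61) and MRPL51 (0.62) higher and MRPL10 (-0.75) lower.

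Histone genes of the replication-dependent clusters have mRNAs that normally end in a stem-loop in place of a poly(A) tail. They were higher for 20 of 44 tested and lower for none (45.5%), with a median of 0.56, and 44 more were below the count filter. With length and GC trends removed 16 were higher and the median was 0.35. There were 16 higher with library totals alone and 14 to 17 with any 1 siRNA library left out. HIST1H2BF measured 1.92, 1.2 and 1.49 CPM against 6.28, 7.34 and 7.33 CPM (log2 fold change 2.18 ± 0.21, adjusted p = 3.64e-05). HIST1H2BG measured 8.26, 7.48 and 9.66 CPM against 28.9, 31.8 and 27.9 CPM (log2 fold change 1.8 ± 0.13, adjusted p = 3.53e-06). HIST2H2AA4 measured 52.3, 47.3 and 48.9 CPM against 74.1, 71 and 72.7 CPM (log2 fold change 0.55 ± 0.08, adjusted p = 0.000505). HIST2H2AA4 and HIST2H3C are near-identical to neighbouring copies (97.1% and 100% of 50-base stretches shared), so their values cannot be assigned to 1 gene. Genes of DNA synthesis itself moved less, with 9 of 40 higher, 2 lower and a median of 0.15 (4 and 4 with library totals alone, and 5 higher without labelled library 1 or 2). E2F1, which drives S-phase genes, went from 63 ± 2.2 to 88.3 ± 5.58 CPM (log2 fold change 0.49 ± 0.07, adjusted p = 0.00064). GINS2, of the replicative helicase, went from 7.71 ± 1.02 to 12.4 ± 2.21 CPM (log2 fold change 0.69 ± 0.15, adjusted p = 0.00874), and TK1 and RRM2, which supply nucleotides, had log2 fold changes of 0.54 and 0.43. Of 31 mitosis genes, 2 were called, BIRC5 (log2 fold change 0.45 ± 0.15, adjusted p = 0.0457) and AURKA (log2 fold change 0.42 ± 0.14, adjusted p = 0.0488), both near the threshold, with a median of 0.01; neither passed with library totals alone, and without vehicle library 1 there were 6 higher and 2 lower.

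Metabolic genes shifted by small amounts. Of 30 genes of cholesterol synthesis and uptake, 11 rose and none fell, with a median of 0.28 (3 and 1 with library totals alone, 5 to 7 higher with any 1 siRNA library left out). HMGCS1, the synthase before the rate-limiting step, measured 79, 85 and 82.1 CPM in the control libraries and 158, 145 and 156 CPM in the labelled libraries (log2 fold change 0.9 ± 0.06, adjusted p = 4.11e-06). FDPS went from 99.9 ± 4.53 to 132 ± 6.35 CPM (log2 fold change 0.4 ± 0.09, adjusted p = 0.00703). SREBF2, which controls the pathway, went from 273 ± 7.75 to 329.5 ± 7.59 CPM (log2 fold change 0.27 ± 0.06, adjusted p = 0.00625). Of 30 glycolysis and hypoxia-response genes, 11 rose and 1 fell, with a median of 0.23 (6 higher with library totals alone and without control library 2 or labelled library 1, 17 without vehicle library 1): ADM (adrenomedullin) went from 189.6 ± 7.62 to 318 ± 7.59 CPM (log2 fold change 0.75 ± 0.11, adjusted p = 0.000758). PFKFB3 went from 57.3 ± 3.63 to 87.4 ± 3 CPM (log2 fold change 0.61 ± 0.07, adjusted p = 0.00018). PGAM1 went from 226 ± 20.4 to 343 ± 5.23 CPM (log2 fold change 0.61 ± 0.07, adjusted p = 0.000136). ENO1 went from 2252 ± 148 to 3105 ± 106 CPM (log2 fold change 0.46 ± 0.06, adjusted p = 0.000452). Of 36 nuclear genes for respiratory chain subunits, 13 rose and 1 fell, with a median of 0.26 (6 higher with library totals alone, 7 without labelled library 1, 8 without control library 1 or 2). COX6A1 and COX7C, of cytochrome oxidase, had log2 fold changes of 0.45 and 0.54, and UQCRFS1, the Rieske protein of complex III, of -0.38.

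Transcripts encoded by the mitochondrial genome went the other way. Of the 13 mRNAs, 11 fell and none rose (84.6%, beside 9.04% of all genes), with a median of -0.64. The 13 together took 1.68 ± 0.0611% of counts in the control libraries and 1.02 ± 0.00577% in the labelled libraries. MT-ND4, a complex I subunit, measured 2738, 2801 and 2671 CPM in the control libraries and 1579, 1566 and 1575 CPM in the labelled libraries (log2 fold change -0.8 ± 0.06, adjusted p = 8.18e-06). MT-ND4L fell most, at 606, 667 and 490.5 CPM against 279, 289 and 315 CPM (log2 fold change -1 ± 0.1, adjusted p = 7.12e-05). MT-CO1, of cytochrome oxidase, measured 4559, 4560.5 and 4316 CPM against 2835, 2867 and 2927 CPM (log2 fold change -0.64 ± 0.07, adjusted p = 8.82e-05). MT-CO2 measured 1788, 1788 and 1459 CPM against 901, 902 and 920 CPM (log2 fold change -0.89 ± 0.09, adjusted p = 6.63e-05). MT-ND5 and MT-ND3 had log2 fold changes of -0.77 and -0.83, and MT-ND6, the mRNA of the other strand, of -0.71. Smaller falls were measured for MT-ATP8 (-0.38), MT-CO3 (-0.37), MT-ATP6 (-0.25) and MT-CYB (-0.2); MT-CYB did not pass without any 1 siRNA library. MT-ND1 was not called at 529, 535 and 521 CPM against 492, 459 and 477 CPM (log2 fold change -0.15 ± 0.08, adjusted p = 0.233), nor was MT-ND2 at 608, 653 and 587 CPM against 651, 624 and 628 CPM (log2 fold change 0.04 ± 0.07, adjusted p = 0.745). These genes share a few long precursor transcripts, so they are not independent. The ribosomal RNAs fell too: MT-RNR2 measured 4053, 4416 and 3684 CPM against 1716, 1738 and 1835 CPM (log2 fold change -1.2 ± 0.1, adjusted p = 1.7e-05). MT-RNR1 measured 684, 682 and 536 CPM against 331, 355 and 361 CPM (log2 fold change -0.86 ± 0.1, adjusted p = 0.000108), in total RNA libraries whose rRNA removal is not described. MT-ND4, MT-ND5, MT-ND3 and MT-CYB share under 10% of their 50-base stretches with nuclear copies, while MT-CO1, MT-ATP6 and MT-ND2 share 49.5%, 46.7% and 43.6%. With library totals alone, 12 of the 13 fell, and 8 to 10 fell with any 1 siRNA library left out.

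**Figure D5:**
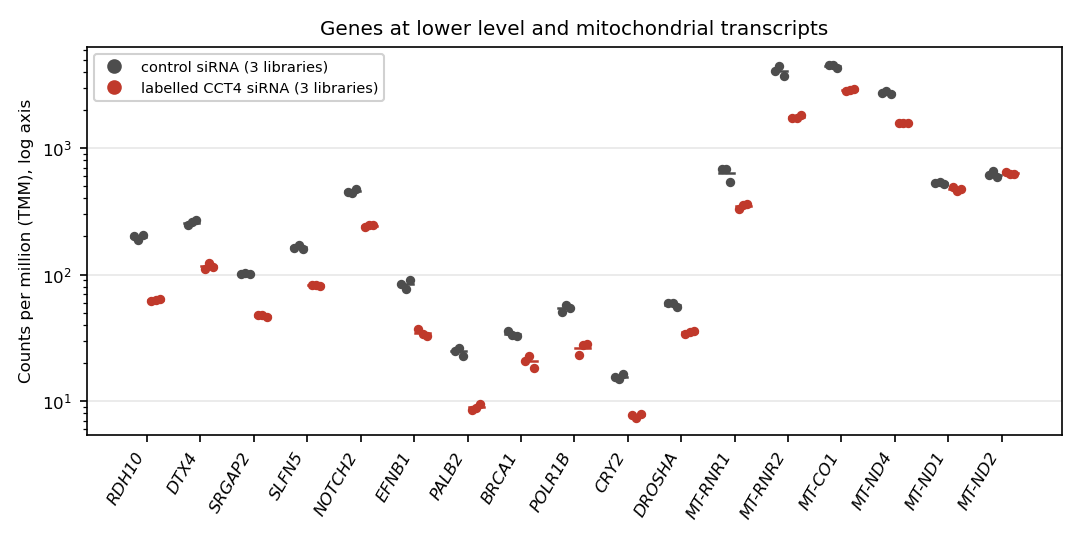
Points are the 3 libraries of each group, in replicate order from left to right, and bars are group means, in CPM on a log axis, for 11 nuclear genes lower in the libraries labelled CCT4 siRNA and 6 mitochondrial transcripts. The groups do not overlap for the 11 nuclear genes, MT-RNR1, MT-RNR2, MT-CO1, MT-ND4 or MT-ND1 (not called), and they overlap for MT-ND2. No overlap was a condition for genes named by the rule, RDH10 and MT-RNR2 among them, and held for 41.8% of all genes tested.

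RDH10 had the lowest log2 fold change of the genes named by the rule. It encodes the dehydrogenase that makes retinal for retinoic acid synthesis. RDH10 (chr8:73294612-73325281) measured 201, 186 and 206 CPM in the control libraries and 61.9, 62.9 and 64.2 CPM in the labelled libraries, 3.14-fold lower (log2 fold change -1.65 ± 0.09, adjusted p = 5.53e-07), and the libraries of each group lay close together. Of 16 genes of retinoid metabolism, 1 was higher (RXRA, 0.33) and 3 lower (0 and 5 with library totals alone); RDH11 (-0.44) and DHRS3 (-0.26) were the others that fell. At 100 CPM or more, the lowest nuclear genes after RDH10 were DTX4, a ubiquitin ligase of the Deltex family, at 245, 258 and 268 CPM against 111, 122 and 114 CPM (log2 fold change -1.15 ± 0.08, adjusted p = 2.72e-06); SRGAP2, which shapes membrane protrusions, at 101, 103 and 101 CPM against 47.6, 48.3 and 46.5 CPM (log2 fold change -1.1 ± 0.09, adjusted p = 1.18e-05); TRAFD1, a negative regulator of innate signalling, at 112, 103 and 112 CPM against 54.7, 57.6 and 49 CPM (log2 fold change -1.02 ± 0.09, adjusted p = 1.95e-05); and SLFN5, an interferon-inducible Schlafen gene, at 161, 173 and 160.1 CPM against 82.7, 82.6 and 81.3 CPM (log2 fold change -1 ± 0.11, adjusted p = 0.000107). The groups were well separated for each, and the rule that named these genes required no overlap. SRGAP2 shares 19.8% of its 50-base stretches with its partial duplicates.

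Genes of homologous recombination and the Fanconi pathway were lower for 9 of 32 members and higher for none (28.1%), with a median of -0.16. PALB2, which joins BRCA1 to BRCA2, measured 24.9, 26.4 and 22.8 CPM in the control libraries and 8.5, 8.79 and 9.45 CPM in the labelled libraries, 2.77-fold lower (log2 fold change -1.47 ± 0.19, adjusted p = 0.000286). BRCA1 measured 35.9, 33 and 32.7 CPM against 20.9, 22.6 and 18.2 CPM (log2 fold change -0.72 ± 0.1, adjusted p = 0.000392), and RBBP8 (CtIP), which starts end resection, 62.7, 70.5 and 67.8 CPM against 54.7, 51.3 and 50.1 CPM (log2 fold change -0.37 ± 0.08, adjusted p = 0.0096). RAD54B also fell (log2 fold change -0.54 ± 0.14, adjusted p = 0.0178) but shares 78.9% of its 50-base stretches with an overlapping gene. The count was 14 with library totals alone and 8 with length and GC trends removed, and it was 3 or 4 without control library 2 or 3 or labelled library 1 or 3. PALB2 and BRCA1 passed at an adjusted p under 0.05 with every other scaling, filter and tool and with each library left out.

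Numbered zinc finger genes (symbols of ZNF and digits), mostly KRAB repressors in clusters, were lower for 83 of 410 and higher for 16 (20.2% and 3.9%), with a median of -0.29. The median stayed at -0.27 with the length and GC trends removed, with 78 lower and 16 higher. The number lower was 48 to 54 without control library 1 or 2 or labelled library 1 or 2. By the naming rule, ZNF550 measured 9.87, 7.1 and 11 CPM against 3.66, 3.16 and 3.86 CPM (log2 fold change -1.39 ± 0.19, adjusted p = 0.000392). ZNF766 measured 14.1, 26.4 and 22.7 CPM against 7.19, 7.84 and 9.84 CPM (log2 fold change -1.34 ± 0.31, adjusted p = 0.0111), and the antisense RNA ZNF436-AS1 12.7, 14.3 and 15.1 CPM against 5.49, 5.5 and 4.95 CPM (log2 fold change -1.4 ± 0.13, adjusted p = 3.5e-05). Among long intergenic non-coding RNAs with LINC names, 2 of 187 were higher (1.07%) and 11 lower (5.88%), both below the 10.7% and 9.04% of all genes. The number lower was 19 with library totals alone, 17 without vehicle library 1 and 4 without control library 1. It was 5 to 7 without control library 3 or any labelled library. LINC00641 stood out on the higher side at 5.51, 4.5 and 3.88 CPM against 22.2, 19.8 and 23.3 CPM (log2 fold change 2.23 ± 0.18, adjusted p = 8.32e-06).

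Further scarce or moderate genes completed the named set. On the lower side, PARS2, the mitochondrial prolyl-tRNA synthetase, measured 7.37, 8.31 and 7.93 CPM against 2.16, 3.54 and 3.09 CPM (log2 fold change -1.42 ± 0.2, adjusted p = 0.000589); of the 17 mitochondrial tRNA synthetases, CARS2 rose (0.37). TMEM177, a cytochrome oxidase assembly factor, measured 5.57, 8.56 and 5.37 CPM against 3.14, 2.21 and 2.31 CPM (log2 fold change -1.34 ± 0.28, adjusted p = 0.00617). GOLGA5, a Golgi golgin, measured 44.3, 42.2 and 36.1 CPM against 15.3, 15 and 18.8 CPM (log2 fold change -1.32 ± 0.11, adjusted p = 1.18e-05). ASB13, a SOCS-box ubiquitin ligase adaptor, measured 10.6, 10.1 and 11.3 CPM against 5.56, 3.61 and 2.06 CPM (log2 fold change -1.51 ± 0.31, adjusted p = 0.00543). GALNT15, a mucin-type glycosyltransferase, measured 21, 21.6 and 22.9 CPM against 9.94, 7.4 and 8.1 CPM (log2 fold change -1.36 ± 0.23, adjusted p = 0.00182). FSD1L measured 16, 15.2 and 17.7 CPM against 3.79, 7.84 and 7.78 CPM (log2 fold change -1.33 ± 0.33, adjusted p = 0.015). FSD1L did not pass without labelled library 1. AGGF1 measured 26.6, 28.1 and 32.6 CPM against 10, 12.6 and 10.9 CPM (log2 fold change -1.38 ± 0.18, adjusted p = 0.000358), with 39.5% of its 50-base stretches shared.

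On the higher side, EFCAB12 measured 2.24, 1.52 and 0.835 CPM against 8.63, 6.39 and 7.52 CPM (log2 fold change 2.3 ± 0.27, adjusted p = 0.000181). Of 30 ribosome biogenesis genes, 3 rose (10%) and 3 fell (10%), close to the 10.7% and 9.04% of all genes. There were 1 and 4 with library totals alone, and 6 higher without vehicle library 1. POLR1B, the second-largest subunit of RNA polymerase I, fell from 53.9 ± 3.48 to 26.3 ± 2.89 CPM (log2 fold change -1.04 ± 0.14, adjusted p = 0.000421). GNL3 (nucleostemin) went from 111 ± 9.44 to 80.6 ± 1.72 CPM (log2 fold change -0.46 ± 0.08, adjusted p = 0.0022), while NHP2 and NOP10, of the box H/ACA complex, were at 0.47 and 0.34. Clock genes split, with 4 of 18 higher and 2 lower (2 and 3 with library totals alone, and 2 higher without control library 1 or 2 or labelled library 3): NR1D1 rose from 89.7 ± 5.01 to 152 ± 3.25 CPM (log2 fold change 0.77 ± 0.07, adjusted p = 2.6e-05). PER1 went from 47.9 ± 0.964 to 70.8 ± 3.32 CPM (log2 fold change 0.56 ± 0.09, adjusted p = 0.00118). CRY2, a repressor of the clock, fell, at 15.4, 15 and 16.4 CPM against 7.78, 7.4 and 7.97 CPM (log2 fold change -1.02 ± 0.09, adjusted p = 2.13e-05). Of 7 metallothionein-list genes tested, 3 fell and 1 was higher: MT1X, a zinc-binding thiol protein, measured 445, 368 and 339 CPM against 225, 196 and 186 CPM (log2 fold change -0.92 ± 0.14, adjusted p = 0.000986), the zinc exporter SLC30A1 fell by 0.36 on the log2 scale, and MTF1, the zinc-sensing factor, by 0.44.

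The change with anticarin-β in the same cell line was set beside the siRNA change, gene by gene, with the difference itself tested. The treatments differ in agent, in time (18 hours against 2 days) and in control, and share no library. Of the 1892 genes higher in the labelled libraries, 1197 were higher with anticarin-β (63.3% of that list and 19.4% of the 6186 higher with anticarin-β), 357 were lower and 338 were not called. Of the 1601 lower genes, 1045 were lower with anticarin-β (65.3%, and 15.5% of its 6740), 302 were higher and 254 were not called. Anticarin-β called 34.9% of all genes higher and 38% lower. The difference between the changes passed for 10610 of 17717 genes (59.9%).

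CXCL2 and EGR1 rose more in the siRNA comparison than with the compound: log2 fold changes of 4.16 against 3.28 ± 0.13 (difference 0.89 ± 0.18, adjusted p = 0.000796) and 3.62 against 2.93 ± 0.18 (difference 0.69 ± 0.24, adjusted p = 0.026). JUNB did so as well, at 2.3 against 0.58 ± 0.07 (adjusted p of the difference = 2.39e-08). JUN showed the reverse order, at 2.34 against 4.21 ± 0.08 (adjusted p = 9.32e-09), and so did CXCL8, at 0.65 against 4.62 ± 0.17 (adjusted p = 1.35e-08). EFNA1 did not differ detectably between treatments, at 2.25 against 1.84 ± 0.14 (difference 0.41 ± 0.2, adjusted p = 0.0919). Other genes moved in opposite directions. CRY2 changed by -1.02 with siRNA and 2.34 ± 0.09 with the compound (adjusted p = 1.19e-09), NOTCH2 by -0.9 and 0.81 ± 0.09 (adjusted p = 1.33e-07), SLFN5 by -1 and 0.41 ± 0.11 (adjusted p = 6.45e-06) and MT-RNR1 by -0.86 and 1.46 ± 0.1 (adjusted p = 2.49e-08). SOCS3 rose with siRNA (0.69) and fell with the compound (-1.21 ± 0.09; adjusted p = 5.8e-08), as did CEBPD (0.91 and -0.74 ± 0.09; adjusted p = 1.94e-07) and CCT3 (0.28 and -1.62 ± 0.07; adjusted p = 8.8e-09). CCT4 itself fell with anticarin-β (-1.52 ± 0.1) and the difference from the siRNA libraries passed (adjusted p = 2.78e-07). DNA replication genes were lower with the compound for 37 of 40 and higher for none, beside 2 lower and 9 higher here, and mitochondrially encoded mRNAs were lower for 13 of 13 there and 11 of 13 here.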

How the data were processed

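RNA-seq of MG63 cells was deposited as 1 table of whole-number read counts for 50868 genes in 12 libraries. Per the submitters' processing notes, the tools named are STAR 2.5.2a and featureCounts 1.5.0 (Subread), with the build hg38; per the labels' protocols, total RNA and a stranded TruSeq kit were used. Not given in the sources used here are the strand setting, the annotation release and how multi-mapped reads were treated. Without the first, reads from genes overlapping on opposite strands cannot be told apart. All count columns were matched to samples by name.

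Counts were analysed with edgeR 4.0.16 in R 4.3.3: filterByExpr over the 4 groups of 3, TMM scaling, a quasi-likelihood fit with 1 mean per group over all 12 libraries (8 residual degrees of freedom, a spread shared by the groups) and Benjamini-Hochberg adjustment over 17717 genes at 0.05. On simulated counts with the real means for this comparison (16859 genes), 46.3%, 77.6% and 100% of genes changed 1.5, 2 and 4-fold were recovered. Of the edgeR calls on these counts, 5.10% were false, and of the DESeq2 calls 11.7%. The simulation changed 67, 67 and 66 genes at these folds, far fewer than the 3493 called here. Its spread followed the average trend with level, so genes as uneven as some real ones were not represented. Its recovery therefore need not hold for these data. Intervals and the limit of 3 counts cover counting or replicate error only. Alternatives were RLE, upper-quartile and no scaling beyond totals, no filter, a mean of at least 1 CPM, DESeq2 1.42.0, limma-voom 3.58.1, the 6 siRNA libraries alone, a replicate block, each library left out, an adjusted p under 0.01, a test against a 1.5-fold change and, added after seeing the data, removal of length and GC trends and of genes with unstable counts.

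Genes named are CCT4; among called genes with no overlap of groups and no clone name, the 12 with the highest and the 12 with the lowest log2 fold change at 5 CPM or more and 6 of each at 100 CPM or more; 2 to 4 called members of each list with the smallest p; and all tested genes of the chaperonin, chemokine, EGF receptor ligand, NF-kB and mitochondrially encoded lists. FOS, ATF3, HSPA5, HSPA1A, DDIT3, IFIT1, COMMD1, DDX3X, B2M, MKI67, TIMP2, XIAP, BMP2, CSF2, IL6, PTGS2, UQCRFS1, MT-RNR1 and the mitochondrial pseudogenes fall outside the rule and were taken up after their values were seen. Some genes that the rule names are not reported here. The comparison, the 50 gene lists and the tests were chosen with earlier results of these data known. Gene positions are from GENCODE 29 (GRCh38), which holds 98.5% of the gene IDs; upstream sequences are from RefSeq GRCh38.p14, found for 11930 tested genes (11916 distinct). Shared sequence is the share of 50-base stretches in a gene's longest GENCODE transcript that occur in other genes' GENCODE transcripts. A gene's shorter transcripts were not checked, so its share can differ for the transcripts expressed.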

Additional observations from a re-analysis of the deposited data

How the results depend on the processing

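The count of 3493 genes stayed within 1.5 times under the other scalings, filters, tools and the added length and GC correction (2790 to 3743) and was 4086 in the siRNA libraries alone; it fell to 1517 at an adjusted p under 0.01 and 166 against a 1.5-fold change. Higher and lower genes were 840 and 677 at 0.01, 115 and 51 against a 1.5-fold change, and 902 and 2800 with library totals alone. With 1 library left out the count ran from 2202 to 4026, higher genes from 1182 to 2214 and lower genes from 995 to 1812; the largest drops were without control library 1 or 2 (2207 and 2202) or labelled library 1, 2 or 3 (2274, 2223 and 2296), where a group kept 2 libraries. Same-numbered control and labelled libraries showed little shared deviation (correlations 0.092, 0.031 and 0.017 over 11615 genes), with other pairs between -0.062 and 0.033. Whether equal numbers mark a shared culture is not stated, and these values cannot settle it. The fit with a replicate block gave 2350 calls, 1300 higher and 1050 lower. CCT4 was not called and stayed above 0 under each scaling, filter, tool, design and left-out library tried. The number of genes whose siRNA and anticarin-β changes differ was between 9942 and 11007 under the other scalings, filters, tools, the replicate block and each left-out library. Of 195 named genes that were called, 159 passed at an adjusted p under 0.05 under each scaling, filter, tool, design and left-out library in which they were tested. Log2 fold changes of some genes that were not called changed sign. With library totals alone MT-ND2 was at -0.09, MTND2P28 at -0.11 and HSPA5 at -0.07, and with length and GC trends removed MT-ND2 was at -0.12, MTND2P28 at -0.14 and TGFA at 0.03. MTND2P28 was at -0.01 with upper-quartile scaling, and AREG at 0.46 with limma-voom. With 1 library left out, the range crossed 0 for AREG (-1.08 to 0.88), B2M (-0.56 to 0.65), CCT6B (-0.64 to 0.19), EGF (-0.17 to 0.48), MTND2P28 (-0.04 to 0.05), TGFA (-0.15 to 0.09), TNIP2 (-0.32 to 0.11) and VCAM1 (-1.34 to 0.01). The cause was not tested.

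Depth limits scarce genes: 3 counts are near 0.2 CPM, and EGR3, CCT6B, IL11 and PARS2 rest on few counts. A call that was not made does not show that a gene was unchanged.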

Other observations

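3 nuclear pseudogenes that copy stretches of mitochondrial genes, taken up after their values were seen, had log2 fold changes close to those of their mitochondrial counterparts. MTCO1P12 measured 30.6, 30.7 and 33 CPM against 21, 19.2 and 19.2 CPM (log2 fold change -0.67 ± 0.13, beside -0.64 for MT-CO1), MTATP6P1 174, 177 and 157 CPM against 132, 132 and 137 CPM (log2 fold change -0.34 ± 0.09, beside -0.25 for MT-ATP6) and MTND2P28 305, 307 and 271 CPM against 295, 303 and 294 CPM (log2 fold change 0.02 ± 0.08, beside 0.04 for MT-ND2). These pseudogenes share 49.7%, 46.7% and 43.5% of their 50-base stretches with other transcripts, their mitochondrial counterparts among them.

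Some abundant genes differed widely between libraries of 1 group. At 20 CPM or more, 159 of 7685 genes varied over 2-fold among the 3 control libraries and 146 of 7570 among the 3 labelled libraries; of the 242 genes in either set, 11 were called. XIAP measured 8.26, 8.31 and 55.5 CPM against 48.3, 63.6 and 59.4 CPM, with only control library 3 near the labelled libraries (log2 fold change 1.24 ± 0.86, adjusted p = 0.346). TIMP2 showed the same arrangement at 130.3, 134 and 399.9 CPM against 524, 514 and 507 CPM (log2 fold change 1.22 ± 0.5, adjusted p = 0.111). MKI67 measured 197, 179 and 118 CPM against 70.5, 208 and 69.9 CPM, labelled library 2 standing apart. B2M measured 1083, 311 and 1399.7 CPM against 634, 2030 and 627 CPM (log2 fold change 0.24 ± 0.62, adjusted p = 0.834). DDX3X, an RNA helicase, also varied but stayed under 2-fold within each group, so it is outside this set. It was called, at 111, 119 and 86.6 CPM against 385, 231 and 421 CPM (log2 fold change 1.71 ± 0.23, adjusted p = 0.000421). The cause was not tested.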
